A study of Homo sapiens with 12 samples.

Results

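HK-2 cells treated with a high dose of the agent labelled Ota for 24 h were compared with vehicle-treated cells at the same time, using 6 of the 12 arrays of the series. The members were the 3 arrays titled Ota, hd, t24h and the 3 arrays titled as controls of 24 h, chosen by their titles without use of any measured value. The control cells received the vehicle of the agent, and the labels give the dose only as high. All 12 cultures were grown in the same serum-free medium with recombinant EGF, hydrocortisone, insulin, transferrin and selenite, and were treated near confluence in 6-well plates. The other 6 arrays hold the same treatment and its vehicle control at 72 h, again with 3 arrays each, and served for the spread and for 1 comparison of times. HK-2 is a single established line of human proximal tubule epithelial cells that was immortalised with viral oncogenes, so all arrays carry that background. The titles call the arrays biological replicates and give no culture dates.

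The proximal tubule is the first segment of the nephron after the glomerulus. Its cells reabsorb most of the filtered sodium, glucose, amino acids and phosphate, they secrete organic anions and cations, and their oxygen use is high because reabsorption is driven by mitochondrial ATP. They are also the renal cells in which many filtered or transported toxins accumulate. Cultured lines of this segment divide, so genes of the cell cycle, of histone supply and of protein synthesis can be read beside the genes of transport.

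Each array measured RNA with 54675 probe sets, that is, groups of short probes for 1 transcript, and the deposited value of a probe set is a log2 intensity after GCRMA, a method that subtracts background by probe sequence and normalizes between arrays. A difference of 1 is a factor of 2. Values between about 2 and 3 are the floor of this scale, and a gene near it in 1 group has a fold change whose size depends on that floor. One probe set was kept per gene, and 10729 genes whose value passed 4 on 3 or more of the 12 arrays were tested with limma over all 12 arrays. Genes with an adjusted p under 0.05 are described as having risen or fallen. Each error beside a log2 fold change is the standard error of this fit, with n = 3 arrays a group. It pools the spread over all 4 groups, those of 72 h included, and moderates it across genes. It can therefore differ from the spread of the 24 h arrays printed beside it.

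The label of the cells was compared with marker genes. Of 17 markers of proximal tubule and renal epithelium, 7 passed the filter on level, and the mean log2 value of all 17 ranged from 6.11 to 6.27 over the control arrays and from 5.94 to 6.31 over the Ota arrays. PAX8, a transcription factor of kidney epithelium, was well expressed, as were the epithelial and mesenchymal filament genes KRT8, KRT18 and VIM. DPP4, CDH6 and CDH2 of the same list were well expressed too, with control means of 11.26, 11.37 and 8.92. The apical and transport genes LRP2, CUBN, AQP1, ANPEP, SLC34A1, SLC5A2, SLC22A6 and SLC22A8 lay under 4 on all 6 arrays, as did PAX2. None of 8 endothelial and none of 7 leukocyte markers passed the filter, and 1 of 11 markers of the distal tubule and collecting duct did. Podocyte markers passed for 4 of 7 genes and fibroblast or pericyte markers for 5 of 9. Of the fibroblast markers LUM and ACTA2 rose and COL1A1 fell, while DCN and RGS5, with control means of 11.34 and 12.26, did not pass the test. The mean of all 9 fibroblast markers was at least 6.36 on each array, above the 6.27 that the 17 tubule markers reached at most on a control array.

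The arrays of the 2 groups also differed in control RNAs added from outside, and in array-wide measures of the cells' own RNA. The 24 probe sets of the bacterial poly-A RNAs, which are added to the RNA before labelling, had means of 7.98, 8.17 and 7.80 on the control arrays and 10.04, 9.88 and 9.58 on the Ota arrays. The hybridisation controls stood 0.93 higher with Ota, the 18S ribosomal RNA probe sets 1.58 higher, and the median of the tested genes 0.56 lower. In each of these 4 measures the 2 groups did not overlap (p = 0.1 in a two-sided exact permutation test, which cannot go lower with 3 arrays a group). The difference between 3' and 5' probe sets, a measure of RNA integrity, moved by 0.046 for ACTB and 0.031 for GAPDH. Their part in the results was not tested. A total amount of cellular RNA that fell with Ota and a technical difference between the arrays cannot be told apart here, nor can fewer cells and less RNA per cell. Correlations of arrays over the tested genes were 0.954 to 0.991 within a group and 0.818 to 0.859 between groups.

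RNA levels of most tested genes differed between Ota and control at 24 h, and falls outnumbered rises on the deposited scale, though not after median centring. Of the 10729 tested genes 6579 (61.3%) passed the threshold, with 2236 that rose (20.8%) and 4343 that fell (40.5%). The 3 Ota arrays lay wholly above or below the 3 control arrays for 7046 genes (65.7%). Falls were also the larger changes, since 1449 genes fell and 252 rose by at least 2 on the log2 scale. The balance of rises and falls depended on the scale. Rises were 34.0% of the calls on the values as deposited, 45% after quantile normalization, 61.9% after centring each array on its median and 1.49% after scaling to the poly-A spike-ins. These scalings shifted the median difference of all genes by 0.20, 0.56 and -1.85. List medians below are therefore given relative to the median of all tested genes, which was -0.24 on the deposited values. For the same reason the genes named by rule have changes of at least 2. That rule of naming also asked for groups that do not overlap. List counts on the deposited values are to be set beside the 20.8% of all tested genes that rose and the 40.5% that fell. List counts under other settings can be set beside those of all genes. After centring 4659 of the 10729 genes rose and 2863 fell, and with no filter 4008 of 19775 rose and 4234 fell.

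**Figure D1:**
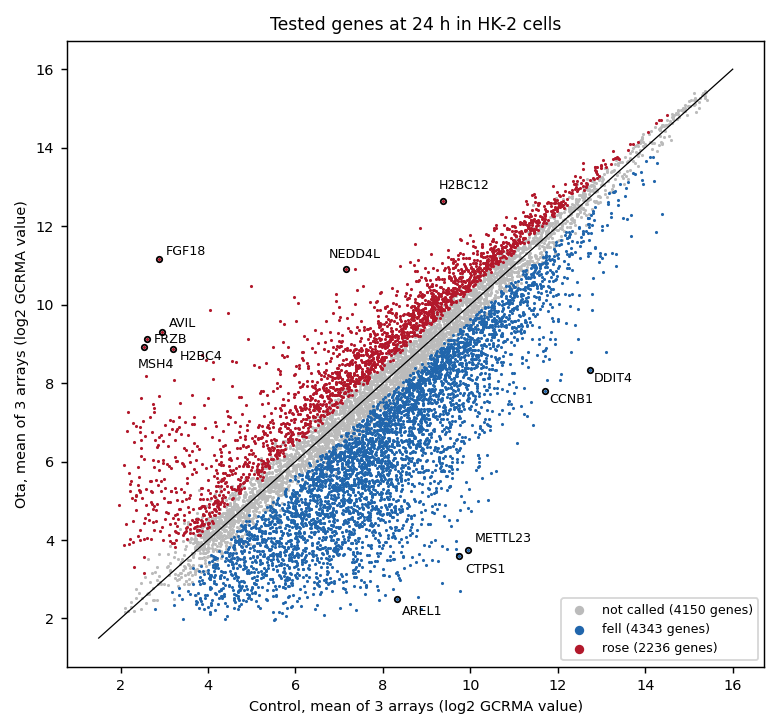
Mean log2 GCRMA value of each tested gene over the 3 control arrays (horizontal) and the 3 Ota arrays (vertical) at 24 h, with called rises in red, called falls in blue, other genes in grey and the line of equality. The blue points (4343 genes) spread farther from the line than most of the red ones (2236 genes), and FGF18 and H2BC4 lie at the upper left while METTL23 and AREL1 lie at the lower right.

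Calls differed with the level of the gene. Among the tertile of genes with the highest mean over the 12 arrays, 26.2% rose and 31.1% fell, against 17.2% and 44.1% in the lowest tertile. The median log2 fold change was 0.015 in the highest tertile, -0.45 in the middle one and -0.39 in the lowest.

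Among genes well expressed in both groups, with means of at least 6, the largest rise was 3.98 and the largest fall -4.57, and falls were the more numerous. With the groups apart and no probe set of the same gene opposed, 43 genes rose and 327 fell by at least 2 in this set. The 12 largest of each direction are described here.

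NEDD4L encodes a ubiquitin ligase that removes the epithelial sodium channel from the membrane. Its values were 7.46, 6.79 and 7.23 in the control cultures and 11.23, 10.57 and 10.90 in the Ota cultures (log2 fold change 3.74 ± 0.20, adjusted p = 5.5e-08). All 3 Ota arrays stood more than 3 units above the highest control array. TIAM2, an activator of the small GTPase Rac, measured 6.19, 5.53 and 6.30 in the control cultures and 9.79, 9.23 and 9.71 in the Ota cultures (log2 fold change 3.57 ± 0.25, adjusted p = 2.9e-07). DDX5, an RNA helicase that takes part in transcription and splicing, went from 7.08, 7.06 and 6.63 to 10.14, 10.05 and 10.06 (log2 fold change 3.16 ± 0.17, adjusted p = 5.9e-08). MED26, a Mediator subunit that recruits elongation factors to RNA polymerase II, went from 8.89, 8.78 and 8.90 to 12.02, 11.94 and 11.91 (log2 fold change 3.10 ± 0.16, adjusted p = 3.6e-08). The arrays of each group were close together for both of these genes on these probe sets. For DDX5, however, a more abundant probe set, which the annotation shares with 2 microRNA genes and which was therefore not in the fit, moved the other way, from 13.08, 13.02 and 13.23 to 12.55, 12.39 and 12.90. The direction given for DDX5 is that of 1 of its 2 probe sets.

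ZNRF3 encodes a membrane ubiquitin ligase that removes Wnt receptors. Its values were 7.40, 7.34 and 7.50 in the control cultures and 10.60, 10.13 and 10.41 in the Ota cultures (log2 fold change 2.97 ± 0.20, adjusted p = 2.9e-07). CREBRF, a regulator of the CREB3 transcription factors, measured 7.56, 7.40 and 7.64 in control and 10.68, 10.33 and 10.37 with Ota (log2 fold change 2.93 ± 0.17, adjusted p = 6.9e-08). The remaining rises of this set were a locus known by the clone name CTC-338M12.4 (3.98 ± 0.25), the histone genes H2BC12L (3.54 ± 0.18) and H2BC12 (3.27 ± 0.17), and IGIP (2.99 ± 0.27), IER5L (2.92 ± 0.21) and LNP1 (2.85 ± 0.21). In each of these 6 genes the lowest Ota array lay above the highest control array by more than 2 units.

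The falls of this set were led by CDC25B, a phosphatase that activates the mitotic kinase CDK1. Its values were 10.96, 11.49 and 10.72 in the control cultures and 6.15, 6.66 and 6.64 in the Ota cultures (log2 fold change -4.57 ± 0.26, adjusted p = 6.7e-08). CCNB1, the cyclin B1 partner of the same kinase, measured 11.50, 11.69 and 11.91 in the control cultures and 7.44, 7.44 and 8.51 in the Ota cultures (log2 fold change -3.90 ± 0.30, adjusted p = 7.1e-07). Both genes of this step into mitosis lay over 2 units lower on every Ota array than on any control array. HMGB2, a DNA-bending chromatin protein abundant in dividing cells, went from 13.11, 12.96 and 13.21 to 8.68, 8.09 and 9.56 (log2 fold change -4.31 ± 0.29, adjusted p = 2.3e-07). RFC4, a subunit of the clamp loader that places PCNA on DNA, went from 11.08, 11.17 and 11.43 to 7.06, 7.30 and 7.26 (log2 fold change -4.02 ± 0.23, adjusted p = 6.7e-08).

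JUND, an AP-1 transcription factor, measured 11.36, 11.32 and 11.59 in the control cultures and 6.85, 5.94 and 8.01 in the Ota cultures (log2 fold change -4.49 ± 0.38, adjusted p = 1.5e-06). DDIT4, a stress-induced inhibitor of mTORC1 signalling, was among the most abundant of these genes, with 12.80, 12.89 and 12.49 in the control cultures and 8.34, 8.14 and 8.53 in the Ota cultures (log2 fold change -4.39 ± 0.16, adjusted p = 4.3e-09). MCU, the pore of the mitochondrial calcium uniporter, went from 10.52, 10.34 and 10.31 to 6.03, 6.39 and 6.07 (log2 fold change -4.23 ± 0.22, adjusted p = 4.1e-08). NXN, the redox protein nucleoredoxin, measured 12.23, 11.79 and 12.16 in control and 8.08, 8.08 and 8.04 with Ota (log2 fold change -3.99 ± 0.19, adjusted p = 2.5e-08). The 3 Ota arrays agreed to within 0.1 for NXN and differed by more than 2 for JUND, whose highest Ota array was still over 3 units under the control arrays.

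PPHLN1 (-4.15 ± 0.29), FAM98B (-4.00 ± 0.29), PNRC2 (-3.86 ± 0.46), a cofactor of mRNA decapping, and RBM12 (-4.10 ± 0.53), an RNA-binding protein, completed the set. RBM12 had the widest spread of the set among the Ota arrays, with 6.40, 4.47 and 7.43, against 10.31, 10.05 and 10.24 in control.

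**Figure D2:**
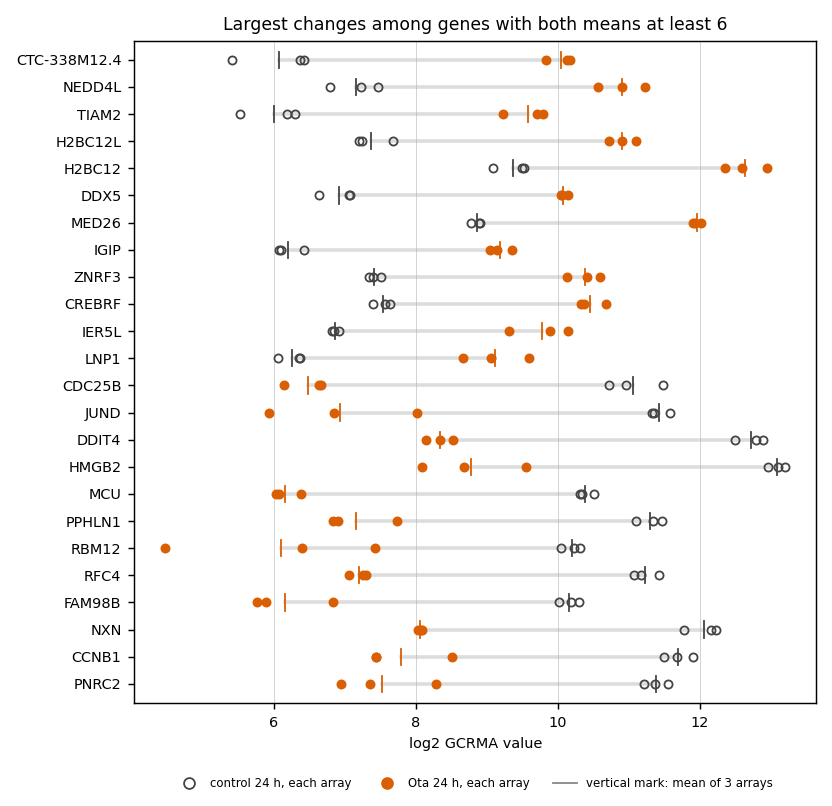
Log2 GCRMA value on each of the 3 control arrays (open circles) and the 3 Ota arrays (filled circles) at 24 h for the 12 largest rises and 12 largest falls among genes with both means at least 6, with vertical marks at the group means. In every gene the open and filled circles are apart, which the rule of naming required. The 3 Ota arrays of MED26 lie between 11.91 and 12.02, and those of RBM12 spread from 4.47 to 7.43.

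A few genes moved between the floor of the scale and a high level. In 6 genes all 3 control arrays were under 4 and all 3 Ota arrays over 8, and 5 of these had no opposed probe set. FGF18, a secreted fibroblast growth factor, had the largest rise, from 2.83, 2.83 and 3.00 to 11.42, 10.97 and 11.13 (log2 fold change 8.29 ± 0.55, adjusted p = 2.1e-07). FRZB, a secreted Wnt antagonist, went from 2.59, 2.63 and 2.61 to 9.47, 8.90 and 8.98 (log2 fold change 6.50 ± 0.53, adjusted p = 1.1e-06). Both are secreted signalling proteins whose controls were at the floor.

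MSH4, a MutS homologue that acts in meiotic recombination, measured 2.53, 2.53 and 2.55 in the control cultures and 9.28, 8.63 and 8.87 in the Ota cultures (log2 fold change 6.38 ± 0.18, adjusted p = 1.8e-09). AVIL, the actin-binding protein advillin, measured 3.01, 3.01 and 2.84 in control and 9.58, 9.03 and 9.32 with Ota (log2 fold change 6.36 ± 0.23, adjusted p = 4.3e-09). The fifth gene, the histone gene H2BC4, is described with its family.

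In the other direction 21 genes had all control arrays over 8 and all Ota arrays under 4, and 20 had no opposed probe set. Of the 8 largest, METTL23, a methyltransferase gene, had the smallest error and went from 9.91, 9.82 and 10.14 to 3.62, 3.68 and 3.97 (log2 fold change -6.20 ± 0.14, adjusted p = 3.2e-10). AREL1, a ubiquitin ligase that restrains apoptosis, went from 8.32, 8.39 and 8.27 to 2.44, 2.22 and 2.82 (log2 fold change -5.84 ± 0.18, adjusted p = 3.4e-09). RRP36, a factor of ribosomal RNA processing, measured 9.45, 9.41 and 9.57 in control and 3.89, 3.58 and 3.88 with Ota (log2 fold change -5.69 ± 0.24, adjusted p = 9.4e-09). The 2 groups of each of these genes were separated by more than 4 units.

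The mitochondrial gene FAHD1 (-5.61 ± 0.26), the cytochrome oxidase assembly factor PET117 (-6.24 ± 0.35), the membrane protein gene TMEM139 (-6.45 ± 0.42) and BRD3OS, which lies opposite BRD3 (-5.48 ± 0.20), also fell to the floor. NBPF20 had the largest fall of the set (-6.62 ± 0.38), but it belongs to a family of near-identical copies that the probes may not tell apart. The 3 probe sets that it shares with other genes of that family stood only 0.24 to 0.29 lower with Ota and remained over 9. Of the probe sets that PET117 shares with 1 other gene, 1 went from a mean of 8.42 to 4.93 and 1 from 7.05 to 6.87.

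The clustered histone genes, which lie in gene clusters and supply the histones that package newly made DNA, included some of the largest rises. Their mRNAs normally end in a stem-loop without a poly-A tail and are made mainly during DNA replication. The array values do not tell transcripts with a tail from those without one, and which of these rose was not tested. The list was described with 2 promoters of its members with the largest rises, a promoter of an H3 gene and, for contrast, that of CCNB1, whose mRNA fell. Each sequence covers 250 bases before to 50 after the RefSeq start (build GRCh38.p14), reads 5′ to 3′ along the gene's strand, and has in capitals each match, on either strand, to CCAAT (bound by NF-Y), TATAAA (the core promoter box bound by TBP) and ATTTGCAT (the octamer bound by POU2F1). The windows are chr6:26123877-26124176 (minus strand), chr6:26123922-26124221 (plus), chr6:26045134-26045433 (plus) and chr5:69166900-69167199 (plus).
H2BC4: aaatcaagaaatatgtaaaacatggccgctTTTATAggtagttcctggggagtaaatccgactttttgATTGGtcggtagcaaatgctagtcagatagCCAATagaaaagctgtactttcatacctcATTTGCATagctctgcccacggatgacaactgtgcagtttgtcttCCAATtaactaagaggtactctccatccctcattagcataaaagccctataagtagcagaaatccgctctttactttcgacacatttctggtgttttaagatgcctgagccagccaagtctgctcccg
H2AC6: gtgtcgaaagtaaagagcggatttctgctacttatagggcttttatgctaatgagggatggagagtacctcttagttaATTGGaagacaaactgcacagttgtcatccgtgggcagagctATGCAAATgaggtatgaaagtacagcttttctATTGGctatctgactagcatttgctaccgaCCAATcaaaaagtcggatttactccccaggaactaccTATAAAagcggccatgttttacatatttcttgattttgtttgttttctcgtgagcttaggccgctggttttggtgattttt
H3C3: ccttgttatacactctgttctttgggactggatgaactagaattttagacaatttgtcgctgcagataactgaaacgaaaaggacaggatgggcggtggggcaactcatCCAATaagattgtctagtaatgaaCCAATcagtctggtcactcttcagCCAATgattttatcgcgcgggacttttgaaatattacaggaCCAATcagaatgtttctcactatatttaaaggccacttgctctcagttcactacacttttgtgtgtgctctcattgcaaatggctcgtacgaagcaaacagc
CCNB1: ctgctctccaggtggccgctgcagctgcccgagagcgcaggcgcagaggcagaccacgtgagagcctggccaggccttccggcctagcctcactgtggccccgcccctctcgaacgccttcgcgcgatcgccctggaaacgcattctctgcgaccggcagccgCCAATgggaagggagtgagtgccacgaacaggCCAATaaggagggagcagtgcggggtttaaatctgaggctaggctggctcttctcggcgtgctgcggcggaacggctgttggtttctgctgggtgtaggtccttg

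H2BC4 and H2AC6 face away from each other, and their windows share 255 bases, so the 2 largest rises of the list start from 1 stretch of DNA. Matches in that stretch count for both genes, and the TTTATA of H2BC4 is the TATAAA of H2AC6. A match on either strand was counted, so a TATAAA in a window need not be the core promoter box of that gene. Of the promoters of the 20 tested clustered histone genes, 90% held CCAAT, 65% TATAAA and 55% ATTTGCAT. The shares over the 8890 tested genes with a promoter in the table were 37.56%, 5.332% and 1.215%, and over all 27305 promoters 35.7%, 11.95% and 1.802%. Of 48 tested mitotic genes with a promoter in the table, 66.67% held CCAAT, 2.083% TATAAA and none ATTTGCAT. CCAAT was thus frequent in a list that rose and in one that mostly fell. A match describes letters only and shows no binding.

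H2BC4, which encodes a core histone H2B, went from 2.99, 3.29 and 3.31 to 8.80, 8.67 and 9.16 (log2 fold change 5.68 ± 0.27, adjusted p = 2.4e-08). H2AC6, its H2A neighbour, went from 4.52, 3.62 and 5.26 to 9.83, 9.45 and 10.11 (log2 fold change 5.33 ± 0.32, adjusted p = 1.1e-07). H2BC12, the most abundant member, went from 9.08, 9.52 and 9.50 to 12.60, 12.35 and 12.95 (log2 fold change 3.27 ± 0.17, adjusted p = 4.9e-08). The groups of these 3 genes were apart, which the rule of naming required. The 3 probe sets that H2BC4 shares with other H2B genes were higher with Ota by 2.91 to 3.56.

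Of 43 clustered histone genes on the array 20 passed the filter, 17 rose and none fell, against 20.8% and 40.5% of all tested genes. Several passed only through the Ota arrays, so the count over those that passed is a description. Among the 7 with all control arrays over 4, 6 rose and none fell, against 19.4% and 42.3% of all 10031 such genes. With no filter, 21 of all 43 rose and none fell, against 4008 and 4234 of all 19775 genes.

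By class, 2 of 2 tested linker histone H1 genes rose, 5 of 6 H2A genes, 6 of 7 H2B genes, 2 of 3 H3 genes and 2 of 2 H4 genes. The 6 rises with all control arrays over 4 were 4 H2B genes, 1 H1 gene and 1 H4 gene, and the H2A and H3 rises were all of members that had a control array under 4. The 17 rises ran from 1.33 for H2BC3 to 5.68 for H2BC4. H3C6 (-0.09 ± 0.36), H2BC21 (0.04 ± 0.14) and H2AC25 (0.08 ± 0.24) did not pass the test. The median of the 20 stood 3.08 above that of all tested genes, but that of all 43 with no filter stood 0.27 above. The counts over the 20 were 19 rises and no fall after median centring, 16 and none after quantile normalization, and 12 rises and 3 falls after scaling to the spike-ins. It was the list with most rises left on that last scale. Of the 20 probe sets 8 are of types that can hybridise to more than 1 gene, and without such probe sets 10 of 12 genes rose. The copies of 1 class are near-identical, so the identity of a single gene is not sure.

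**Figure D3:**
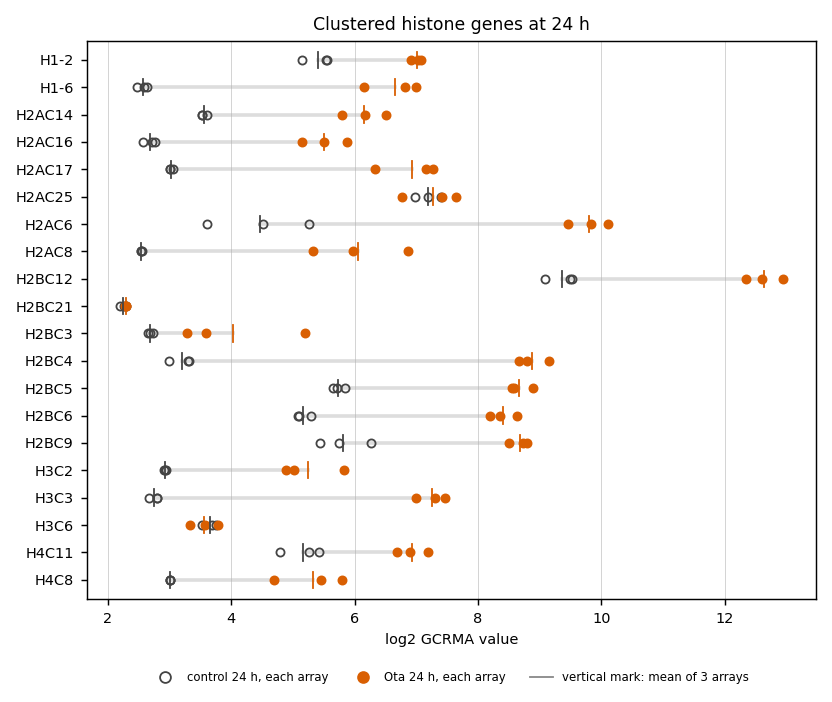
Log2 GCRMA value on each of the 3 control arrays (open circles) and 3 Ota arrays (filled circles) at 24 h for the 20 tested clustered histone genes, with vertical marks at the group means. The filled circles lie to the right of the open ones in 17 genes, and H2AC25, H2BC21 and H3C6 overlap or nearly coincide.

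The replacement histone variants, which are made outside replication from genes with poly-A tails, did not move as 1 group. Of 9 tested, 3 rose and 4 fell (3 and 2 after median centring). H1-10, a linker histone, fell from 8.01, 7.79 and 7.99 to 4.92, 4.26 and 4.84 (log2 fold change -3.26 ± 0.21, adjusted p = 2.0e-07). The count of falls dropped from 4 to 2 on leaving out any 1 of 4 of the 24 h arrays (Ota replicates 1 and 2, control replicates 1 and 3).

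Genes that copy and repair DNA mostly fell. Of 53 DNA replication genes tested, 31 fell (58.5%) and 3 rose (5.7%), against 40.5% and 20.8% of all tested genes. Their median stood at -0.87 relative to all genes. Falls were also the larger count after median centring (25 fell and 17 rose). CDC7, the kinase that fires replication origins, went from 8.39, 8.38 and 8.49 to 3.93, 3.16 and 3.98 (log2 fold change -4.73 ± 0.20, adjusted p = 1.3e-08), 2 groups separated by more than 4 units. Of 7 tested MCM genes, which encode the replicative helicase and its relatives, 5 fell and none rose, and 2 of the 7 had an opposed probe set. Of 5 clamp loader genes 3 fell and 1 rose. Origin recognition genes did not share the direction, since of 6 tested 2 fell and 1 rose, with a relative median of 0.23. Of 4 GINS replication genes 2 fell and 0 rose. The count of risen replication genes was 5 with a replicate block and 6 without Ota replicate 2.

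Of 42 genes of double-strand break and crosslink repair, 27 fell and 4 rose (20 and 9 after centring), with a relative median of -0.85. CHEK1, the kinase that halts the cell cycle on stalled replication, measured 9.03, 9.24 and 9.45 in the control cultures and 4.64, 4.50 and 5.23 in the Ota cultures (log2 fold change -4.45 ± 0.25, adjusted p = 6.1e-08). MRE11, a nuclease that starts break repair, went from 7.70, 7.45 and 7.84 to 3.49, 5.11 and 4.98 (log2 fold change -3.14 ± 0.35, adjusted p = 1.1e-05). Of 8 Fanconi genes, which act on DNA crosslinks, 6 fell and none rose, against 40.5% and 20.8% of all tested genes.

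Mitotic genes followed the same direction. Of 57 genes of mitotic kinases, kinetochores and condensin, 34 fell and 4 rose (23 and 8 after centring), with a relative median of -0.43. SPC25, a part of the kinetochore's microtubule-binding NDC80 complex, went from 9.32, 9.09 and 9.79 to 4.47, 3.54 and 5.79 (log2 fold change -4.80 ± 0.45, adjusted p = 3.0e-06). Of 47 kinesin and tubulin genes 25 fell (53.2%) and 5 rose (10.6%), against 40.5% and 20.8% of all tested genes. After centring 16 fell and 13 rose. KIF15, a spindle motor, measured 6.84, 7.07 and 7.26 in control and 4.01, 2.95 and 4.76 with Ota (-3.15 ± 0.37). KIF3C, a motor of axonal and vesicle transport, measured 6.08, 5.17 and 5.92 in control and 3.75, 2.75 and 3.93 with Ota (-2.24 ± 0.41). The risen kinesin and tubulin genes numbered 3 on leaving out any 1 of the control arrays of 24 h or replicate 1 of the 72 h controls.

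Genes of the transcription machinery moved in both directions within a single complex. Mediator is the complex that links activators to RNA polymerase II. Of 54 genes of RNA polymerases and Mediator, 26 fell (48.1%) and 6 rose (11.1%), against 40.5% and 20.8% of all tested genes. After centring 22 fell and 19 rose. Against the rise of MED26, MED20 went from 7.70, 7.34 and 7.70 to 2.58, 2.58 and 3.61 (log2 fold change -4.65 ± 0.42, adjusted p = 2.3e-06) and MED21, a core subunit, from 8.41, 7.97 and 8.89 to 3.53, 3.54 and 4.48 (-4.58 ± 0.35). Both were low on every Ota array. Of 25 tested Mediator genes 15 fell and 5 rose, and of 29 RNA polymerase genes 11 fell and 1 rose. These counts stand beside the same shares of all genes. Risen genes of the list numbered 11 without Ota replicate 2.

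Splicing factor genes fell in 28 of 69 cases (40.6%, against 40.5% of all tested genes) and rose in 9, a balance that turned to 18 and 29 after median centring. PRPF18 (-4.22 ± 0.33) and PRPF3 (-3.32 ± 0.26), both of the spliceosome, had the largest qualifying falls. Of 328 tested ZNF genes, most of them zinc finger transcription factors, 141 fell (43.0%) and 70 rose (21.3%), close to the 40.5% and 20.8% of all tested genes, and after centring 87 fell and 139 rose. ZNF513 went from 2.44, 2.29 and 2.59 to 6.94, 6.48 and 7.25 (4.45 ± 0.20), and ZNF547 rose by 3.51. ZNF232 measured 8.13, 8.16 and 8.40 in the control cultures and 4.18, 4.18 and 4.17 in the Ota cultures (-4.05 ± 0.16), and ZNF641 changed by -3.86 ± 0.24. The 3 Ota arrays of ZNF232 were nearly equal.

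Chromatin enzymes and readers showed 20 rises (28.6%) and 24 falls (34.3%) among 70 genes, against 20.8% and 40.5% of all tested genes. There were 36 rises and 18 falls after centring, and 29 and 22 after quantile normalization. Without probe sets that can cross-hybridise 16 of 47 rose and 12 fell. The 20 rises became 13 with the 6 arrays of 24 h alone. SETD6, a lysine methyltransferase, went from 7.07, 7.38 and 7.55 to 3.44, 3.45 and 3.42 (log2 fold change -3.89 ± 0.15, adjusted p = 6.9e-09). KAT7, a histone acetyltransferase that also acts at origins, measured 3.64, 2.37 and 5.81 on the Ota arrays and 8.26, 8.03 and 7.89 on the control arrays (-4.12 ± 0.61). Its Ota arrays differed by over 3 units.

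Of 17 circadian clock genes 6 rose (35.3%) and 4 fell (23.5%), against 20.8% and 40.5% of all tested genes. After centring 12 rose and 2 fell, and after scaling to the spike-ins 0 rose and 14 fell. DBP, a clock output factor, went from 4.86, 5.62 and 4.56 to 2.63, 2.76 and 2.92 (log2 fold change -2.24 ± 0.33, adjusted p = 1.0e-04). Among genes named after their values were seen, the core genes CLOCK (1.31 ± 0.14) and PER2 (1.46 ± 0.21) rose. Falls numbered 2 without Ota replicate 2 or control replicate 1. Krüppel-like factor genes rose in 5 of 14 cases and fell in none, with 1.48 for KLF10 as the largest. After centring 10 rose and 0 fell, although 0 rose and 13 fell after scaling to the spike-ins. The 5 became 3 without control replicate 1, and 1 gene fell without Ota replicate 3 or control replicate 3. Of 5 tested host genes of small nucleolar RNAs 3 rose, SNHG19 (1.73), SNHG17 (0.67) and ZFAS1 (0.58), and none fell. All 5 rose after centring, whereas 0 rose and 4 fell after scaling to the spike-ins. SNHG19, SNHG17, ZFAS1, KLF10, CLOCK and PER2 were named after their values were seen.

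Mitochondria hold ribosomes of their own beside those of the cytosol. Of 75 genes of mitochondrial ribosomal proteins 53 fell and 4 rose (34 and 14 after centring), with a relative median of -0.72. MRPL16 went from 7.47, 7.55 and 7.90 to 3.76, 3.04 and 4.03 (log2 fold change -4.03 ± 0.27, adjusted p = 2.0e-07), and MRPL49 from 9.18, 9.24 and 9.16 to 5.46, 5.90 and 5.98 (-3.42 ± 0.22). Both are proteins of the large subunit, in which 34 of 48 genes fell, as did 19 of 27 in the small subunit. The 4 rises became 7 without Ota replicate 2. Of the cytosolic ribosomal protein genes 46 of 57 did not pass the test, with 8 rises and 3 falls and a relative median of 0.40, while 54 rose after centring and 56 fell after scaling to the spike-ins. These genes are near the top of the scale, with a median control mean of 14.57. The 8 rises became 3 without control replicate 1, 4 without Ota replicate 1 and 5 without Ota replicate 3, and the 3 falls became 1 without control replicate 3.

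Of 32 aminoacyl-tRNA synthetase genes, which load transfer RNAs with amino acids, 21 fell and 3 rose (12 and 9 after centring). All 12 of the calls among the 15 mitochondrial enzymes were falls, and of 17 cytosolic ones 9 fell and 3 rose. HARS2, the mitochondrial histidine enzyme, went from 7.78, 8.16 and 7.79 to 3.69, 3.82 and 4.36 (log2 fold change -3.95 ± 0.19, adjusted p = 2.6e-08), and FARSA, a subunit of the cytosolic phenylalanine enzyme, from 8.81, 8.29 and 8.36 to 5.03, 5.04 and 4.99 (-3.46 ± 0.31). WARS1 rose by 1.45, CARS1 by 0.73 and GARS1 by 0.73, 3 genes named after their values were seen. Rises numbered 5 without Ota replicate 3. Translation initiation and elongation factor genes fell in 25 of 55 cases (45.5%) and rose in 7 (12.7%), against 40.5% and 20.8% of all genes. After centring 16 fell and 24 rose. EIF2B4, a subunit of the exchange factor that recharges eIF2, changed by -3.47 ± 0.31, and EIF3J by -3.38 ± 0.39.

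Of 57 genes of mitochondrial import and of respiratory chain assembly 28 fell (49.1%) and 5 rose (8.8%). The shares over all tested genes were 40.5% and 20.8%. After centring 21 fell and 14 rose. TIMM23B, of the inner membrane translocase, went from 7.44, 7.10 and 7.63 to 2.20, 2.21 and 2.25 (-5.17 ± 0.22); it has a near-identical copy, TIMM23, and the 3 probe sets shared by both copies stood 1.74 to 1.92 lower with Ota. Rises numbered 3 with a replicate block, 2 without control replicate 1 and 8 without Ota replicate 2. The structural subunits of respiratory complex I rose in 12 of 32 cases and fell in 4. After centring 27 rose and 1 fell, and after scaling to the spike-ins 0 rose and 32 fell. Those of complexes II to V rose in 12 of 38 cases and fell in 1, SDHA. After centring 33 rose and 0 fell, and after scaling to the spike-ins 0 rose and 38 fell. On the deposited values the rises were small, at most 0.92 for NDUFB7 and 0.78 for UQCR11, genes named after their values were seen. NDUFV3 fell by 1.69 and SDHA by 0.65. The 4 falls of complex I became 1 without Ota replicate 1, control replicate 1 or control replicate 3, or without replicate 1 of the 72 h controls, and the 1 fall of complexes II to V became 3 without Ota replicate 2 and 2 without control replicate 2.

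**Figure D4:**
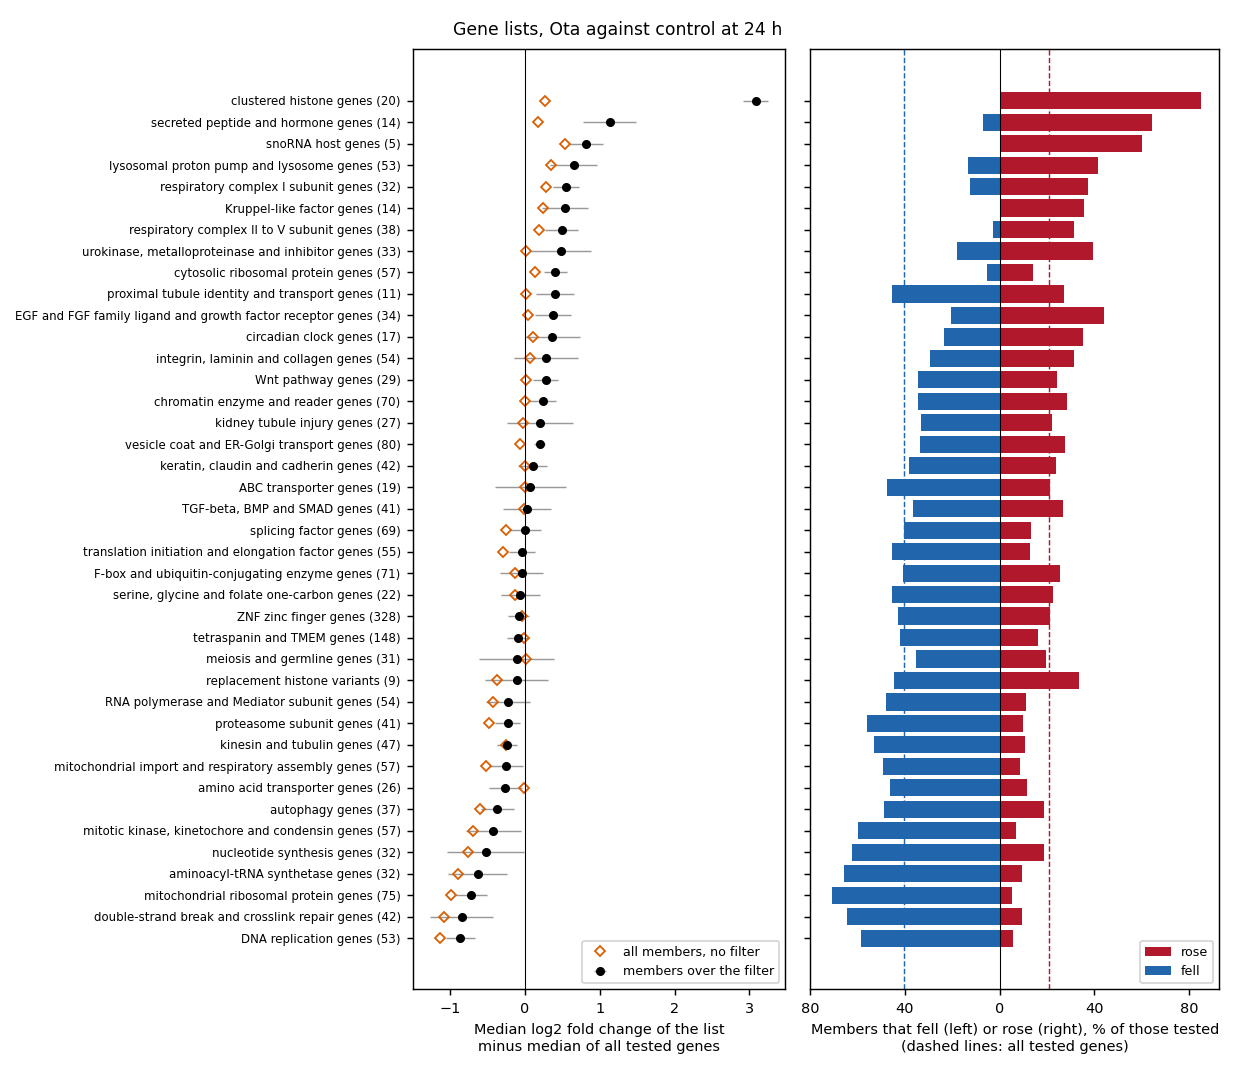
Left, median log2 fold change of the tested members of each gene list minus the median of all tested genes at 24 h, with bars of 1 combined SD of the list median over the 3 Ota and 3 control arrays (filled circles), and the same median over all members on the array with no filter, relative to all genes (open diamonds). Right, percentage of the tested members that fell (blue) or rose (red) on the deposited scale, with dashed lines at 40.5% and 20.8%, the shares over all tested genes. Clustered histone genes stand at 3.08 over the filter and at 0.27 with no filter, and DNA replication genes at -0.87 and -1.14; after scaling to the spike-ins, falls outnumber rises in every list shown but the clustered histone genes.

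Nucleotides and amino acids are the building blocks of nucleic acids and proteins. Of 32 nucleotide synthesis genes 20 fell and 6 rose (11 and 9 after centring). CTPS1, which makes CTP, went from 9.73, 9.72 and 9.78 to 2.74, 3.04 and 5.03 (log2 fold change -6.14 ± 0.44, adjusted p = 4.1e-07), and UMPS, which completes the making of UMP, from 9.57, 9.58 and 9.41 to 4.94, 2.84 and 5.72 (log2 fold change -5.02 ± 0.52, adjusted p = 7.2e-06). Both act in pyrimidine synthesis, and their Ota arrays varied by over 2 units. The 6 rises became 3 without control replicate 3. In serine, glycine and folate one-carbon metabolism 10 of 22 genes fell (45.5%) and 5 rose (22.7%), against 40.5% and 20.8% of all tested genes. After centring 8 fell and 9 rose. SLC19A1, the reduced folate carrier, went from 6.77, 7.09 and 7.14 to 3.15, 3.86 and 4.56 (-3.14 ± 0.29). The 5 rises became 3 without Ota replicate 1 or control replicate 2.

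Of 26 amino acid transporter genes 12 fell (46.2%) and 3 rose (11.5%), against 40.5% and 20.8% of all tested genes. After centring 8 fell and 7 rose. The 3 rises became 5 without Ota replicate 2. SLC38A9, a lysosomal arginine sensor of the mTORC1 pathway, went from 8.43, 8.17 and 8.30 to 4.70, 3.62 and 4.69 (log2 fold change -3.96 ± 0.25, adjusted p = 1.6e-07), and SLC1A4, a neutral amino acid exchanger, changed by -2.97 ± 0.17. Of 19 ABC transporter genes 9 fell (47.4%) and 4 rose (21.1%), against 40.5% and 20.8% of all tested genes, and 7 did each after centring. ABCC10, an export pump, went from 7.21, 6.75 and 7.50 to 2.53, 2.55 and 2.94 (-4.48 ± 0.22). ABCF1, which has ATP-binding cassettes but acts in translation and not as a transporter, changed by -3.41 ± 0.24. Rises numbered 2 without Ota replicate 1.

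Of the 41 proximal tubule identity and transport genes on the array, only 11 passed the filter. Of these 5 fell (45.5%) and 3 rose (27.3%), against 40.5% and 20.8% of all tested genes, and 3 fell and 6 rose after centring. PAX8 measured 10.13, 9.97 and 10.14 in the control cultures and 7.16, 7.62 and 7.85 in the Ota cultures (log2 fold change -2.53 ± 0.40, adjusted p = 1.7e-04). SLC4A4, the basolateral sodium bicarbonate cotransporter of this segment, went from 11.91, 11.79 and 11.91 to 9.65, 9.34 and 9.96 (log2 fold change -2.22 ± 0.21, adjusted p = 3.2e-06). SLC22A4, a carrier of ergothioneine and organic cations, went the other way, from 5.99, 6.37 and 6.14 to 8.74, 8.48 and 8.58 (log2 fold change 2.43 ± 0.27, adjusted p = 1.1e-05). The groups of all 3 genes were apart, which the rule of naming required.

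Genes linked to tubule injury rose in 6 of 27 cases (22.2%) and fell in 9 (33.3%), against 20.8% and 40.5% of all tested genes. After centring 12 rose and 7 fell. The rises were 3 with the 6 arrays of 24 h alone, and without probe sets that can cross-hybridise 2 of 16 rose and 7 fell. VCAM1, an adhesion molecule of injured tubule cells, went from 7.71, 7.88 and 7.55 to 3.80, 3.58 and 4.14 (log2 fold change -3.87 ± 0.29, adjusted p = 6.1e-07). KRT19, a keratin, measured 12.16, 12.05 and 11.77 in the control cultures and 9.32, 10.52 and 8.88 in the Ota cultures (log2 fold change -2.42 ± 0.35, adjusted p = 9.1e-05). Named after their values were seen, CD44 (1.78 ± 0.24) and the stress cytokine GDF15 (1.45 ± 0.34) were the largest rises.

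Lysosomes break down what the cell takes up or recycles. Of 53 tested lysosome genes 22 rose and 7 fell, with a relative median of 0.65. After centring 44 rose and 4 fell, and after scaling to the spike-ins 1 rose and 51 fell. Cathepsin genes, which encode lysosomal proteases, rose in 5 of 10 cases and fell in none, against 20.8% and 40.5% of all tested genes. Subunits of the proton pump that acidifies the lysosome were split, with 9 of 18 that rose and 4 that fell. ATP6V1B2, of its catalytic sector, went from 9.83, 9.76 and 9.68 to 7.02, 6.71 and 7.59 (log2 fold change -2.65 ± 0.25, adjusted p = 3.7e-06), and ATP6V1D measured 8.67, 9.68 and 8.01 with Ota against 10.83, 10.80 and 10.78 in control (-2.02 ± 0.38). Named after their values were seen, CTSB (1.09 ± 0.29), LIPA (1.09 ± 0.14) and IDS (1.31 ± 0.18), all lysosomal hydrolases, rose.

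Autophagy genes fell in 18 of 37 cases (48.6%) and rose in 7 (18.9%), against 40.5% and 20.8% of all tested genes. After centring 13 fell and 14 rose. CALCOCO2, a receptor that links cargo to the autophagosome, went from 8.41, 8.77 and 8.69 to 4.03, 4.44 and 4.31 (log2 fold change -4.36 ± 0.21, adjusted p = 2.3e-08), but without probe sets that can cross-hybridise its other probe set gave -0.14 and did not pass. WIPI1, which acts in making the autophagosome, changed by -3.02 ± 0.30. Of 41 proteasome genes 23 fell (56.1%) and 4 rose (9.8%), and after centring 12 fell and 13 rose. PSMB9, of the immunoproteasome, measured 5.21, 6.14 and 3.96 with Ota and 7.93, 8.09 and 8.29 in control (-3.00 ± 0.43), and PSME3, an activator subunit, changed by -2.96 ± 0.41. The 4 rises became 2 without control replicate 1.

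Of 80 genes of vesicle coats and transport between the endoplasmic reticulum and the Golgi 27 fell (33.8%) and 22 rose (27.5%). The shares over all tested genes were 40.5% and 20.8%. After centring 14 fell and 40 rose. Without probe sets that can cross-hybridise 16 of 62 fell and 24 rose. SEC24D, a cargo-binding COPII coat protein, changed by -2.84 ± 0.30, and TRAPPC6B, of a tethering complex, by -3.04 ± 0.38. Of 71 F-box and ubiquitin-conjugating enzyme genes 29 fell (40.8%) and 18 rose (25.4%), against 40.5% and 20.8% of all tested genes. After centring 20 fell and 31 rose, and after quantile normalization 24 fell and 25 rose. UBE2E2 changed by -3.40 ± 0.24 and FBXO46 by -3.00 ± 0.21.

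Growth factors and their receptors carry signals between cells. Of 34 tested EGF and FGF family ligands and growth factor receptors 15 rose (44.1%) and 7 fell (20.6%). After centring 17 rose and 5 fell, and after scaling to the spike-ins 1 rose and 26 fell. All 5 tested EGF family ligand genes rose, against 20.8% of all tested genes. The rises were 0.56 for NRG1, 0.62 for TGFA, 0.68 for EREG, 0.90 for BTC and 1.39 for HBEGF. Each was smaller in size than the shift of all genes by scaling to the spike-ins (-1.85). Of these genes 4 had all control arrays over 4. NRG1 had an opposed probe set, and these 5 genes were named after their values were seen. The culture medium itself contains EGF. The receptor ERBB2 went from 8.34, 8.25 and 7.88 to 4.74, 6.07 and 4.80 (log2 fold change -2.96 ± 0.30, adjusted p = 5.3e-06), and DDR2, a receptor kinase for collagen, from 4.84, 5.10 and 4.85 to 7.07, 7.75 and 6.24 (log2 fold change 2.09 ± 0.30, adjusted p = 7.9e-05), a rise that did not pass after scaling to the spike-ins (0.24).

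The Wnt pathway held large changes in both directions. Of 29 tested genes 10 fell (34.5%) and 7 rose (24.1%), against 40.5% and 20.8% of all tested genes. There were 14 rises and 10 falls after centring and 10 of each after quantile normalization. With no filter 16 of all 67 rose and 10 fell. The rises included FRZB and ZNRF3, both antagonists of Wnt signalling. DVL2, which relays the signal inside the cell, went from 7.97, 8.03 and 7.97 to 2.85, 3.09 and 3.40 (log2 fold change -4.88 ± 0.18, adjusted p = 4.3e-09). FZD5, a Wnt receptor, went from 9.29, 9.38 and 9.59 to 6.37, 5.47 and 6.58 (log2 fold change -3.28 ± 0.26, adjusted p = 9.3e-07). All 4 of these genes had groups that did not overlap, which the rule of naming required and which 65.7% of all tested genes had.

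Of 41 TGF-beta, BMP and SMAD genes 15 fell (36.6%) and 11 rose (26.8%), against 40.5% and 20.8% of all tested genes. After centring 9 fell and 16 rose (11 and 13 after quantile normalization, and 11 and 13 of all 54 with no filter). ID1, a target gene of BMP signalling, went from 9.65, 9.68 and 10.07 to 6.96, 6.79 and 7.30 (log2 fold change -2.78 ± 0.21, adjusted p = 6.9e-07). The type I receptor gene ACVR1 went from 9.63, 9.12 and 9.45 to 6.90, 4.71 and 7.38 (-3.07 ± 0.51), and ACVR1C, another type I receptor, rose from 2.33, 2.33 and 2.34 to 5.49, 4.54 and 5.04 (2.69 ± 0.19). The controls of ACVR1C were at the floor.

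Of 33 urokinase, metalloproteinase and inhibitor genes 13 rose and 6 fell, with a relative median of 0.48. After centring 22 rose and 3 fell, and after scaling to the spike-ins 1 rose and 27 fell. MMP1, an interstitial collagenase, measured 5.37, 6.99 and 4.86 in the control cultures and 9.31, 10.55 and 8.65 in the Ota cultures (log2 fold change 3.76 ± 0.55, adjusted p = 9.9e-05). PLAUR, the urokinase receptor, went from 5.94, 5.62 and 6.31 to 8.20, 7.87 and 8.58 (log2 fold change 2.26 ± 0.23, adjusted p = 5.9e-06) and did not pass after scaling to the spike-ins (0.41). Its ligand PLAU rose by 1.04 and the related activator PLAT by 1.51, both named after their values were seen.

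Integrin, laminin and collagen genes were balanced, with 17 rises (31.5%) and 16 falls (29.6%) among 54, against 20.8% and 40.5% of all tested genes. With the 6 arrays of 24 h alone 13 rose and 15 fell. After median centring 29 rose and 4 fell, and after scaling to the spike-ins 1 rose and 51 fell. ITGA9, an integrin chain, went from 2.36, 2.36 and 2.36 to 7.49, 6.46 and 6.76 (log2 fold change 4.54 ± 0.33, adjusted p = 4.1e-07), and COL4A4, a basement membrane collagen of the kidney, changed by -2.16 ± 0.33. Of 42 keratin, claudin and cadherin genes 16 fell (38.1%) and 10 rose (23.8%), against 40.5% and 20.8% of all tested genes. After centring 11 fell and 19 rose (15 and 22 of all 107 with no filter). OCLN, the tight junction protein occludin, went from 8.95, 9.04 and 9.02 to 7.03, 4.64 and 7.45 (log2 fold change -2.63 ± 0.54, adjusted p = 0.0013). KRT15 rose from 3.37, 3.67 and 4.02 to 6.56, 4.54 and 6.36 (log2 fold change 2.13 ± 0.44, adjusted p = 0.0013), and did not pass after scaling to the spike-ins (0.28). The second Ota array stood well below the others in both of these genes. Tetraspanin and TMEM genes, grouped by name and not by role, fell in 62 of 148 cases and rose in 24, or 41.9% and 16.2% against 40.5% and 20.8% of all tested genes; after centring 47 fell and 53 rose. TMEM138, a gene of the primary cilium, went from 8.07, 7.92 and 8.13 to 2.52, 2.60 and 2.68 (-5.44 ± 0.50).

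Of 40 secreted peptide and hormone genes on the array 14 passed the filter, and 9 of these rose and 1 fell. After centring 13 rose and 1 fell, and after scaling to the spike-ins 1 rose and 8 fell. Of the 11 with all control arrays over 4, 6 rose, against 19.4% of all 10031 such genes. GAL, the neuropeptide galanin, went from 7.40, 7.49 and 6.99 to 9.84, 10.16 and 9.25 (log2 fold change 2.45 ± 0.30, adjusted p = 2.3e-05), and ADM, the vasodilator adrenomedullin, from 5.43, 5.91 and 5.41 to 8.17, 7.54 and 7.90 (log2 fold change 2.29 ± 0.20, adjusted p = 2.0e-06). Neither passed after scaling to the spike-ins, where they stood at 0.60 and 0.44. AGT, the precursor of angiotensin, rose by 2.21 and was named after its values were seen.

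Of 108 meiosis and germline genes on the array 31 passed the filter. Of the 31, 11 fell (35.5%) and 6 rose (19.4%), against 40.5% and 20.8% of all tested genes. After centring 7 fell and 11 rose, and after quantile normalization 11 did each. With no filter 10 of all 108 fell and 34 rose, against 4234 and 4008 of all 19775 genes. Of the genes that did not pass the filter, 91.6% had a higher mean on the Ota arrays than on the control arrays. MSH4 was the largest rise of the list. SPATA7 went from 6.87, 6.90 and 7.49 to 2.86, 2.93 and 2.98 (-4.17 ± 0.25) and TSPYL1 from 11.25, 10.98 and 11.25 to 7.60, 6.10 and 8.52 (-3.75 ± 0.44). After scaling to the spike-ins, the risen members numbered 12 for the clustered histones, 4 for the ZNF genes, 3 for the Wnt genes and at most 1 for each of the other 37 lists.

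The question of whether the early response was kept was asked by testing the difference of the Ota effect between 24 h and 72 h, each against the vehicle control of its own time. That difference passed the threshold for 5313 of 10729 genes (49.5%). Of the 6579 genes called at 24 h, 3603 (54.8%) differed between the times. By direction, 1175 genes rose and 2320 fell at both times, 391 fell at 24 h and rose at 72 h, 261 did the reverse, and 2432 were not called at 72 h.

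Of the 103 named genes 80 were called in the same direction at 72 h, 20 were not called and 3 were called the other way. The last 3 were KIF3C, PRPF3 and ATP6V1B2, which fell at 24 h and rose by 1.48, 1.03 and 1.06 at 72 h. The mitotic genes CCNB1 and SPC25 and the replication kinase CDC7 stood at 0.25, 0.30 and -0.02 at 72 h, none of them called (difference -4.15 ± 0.43, adjusted p = 2.8e-05 for CCNB1). CTPS1 stood at -0.11 at 72 h (difference -6.04 ± 0.63, adjusted p = 2.9e-05). CREBRF, among the largest rises of 24 h, stood at -0.23 (difference 3.15 ± 0.23, adjusted p = 6.3e-06). Each change is against the control of its own time. Whether the Ota or the control cultures moved between the times was not tested.

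Other changes were as large or larger at 72 h. METTL23 fell by 7.45 at 72 h (difference 1.25 ± 0.20, adjusted p = 4.0e-04). PLAUR and GAL rose by 5.91 and 5.46 (difference -3.65 ± 0.32, adjusted p = 1.2e-05 and difference -3.01 ± 0.42, adjusted p = 1.7e-04), more than at 24 h, except that a probe set of PLAUR free of cross-hybridisation gave a difference of 0.066. H2BC4 rose by 6.86 (difference -1.18 ± 0.38, adjusted p = 0.023), and the H1 gene H1-2 by 5.26 after 1.60 at 24 h (difference -3.66 ± 0.26, adjusted p = 4.9e-06). FGF18 was still higher with Ota by 3.71 but less so than at 24 h (difference 4.57 ± 0.78, adjusted p = 6.2e-04). The genes were named for the size of their 24 h change, which by itself favours a smaller change at the other time.

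**Figure D5:**
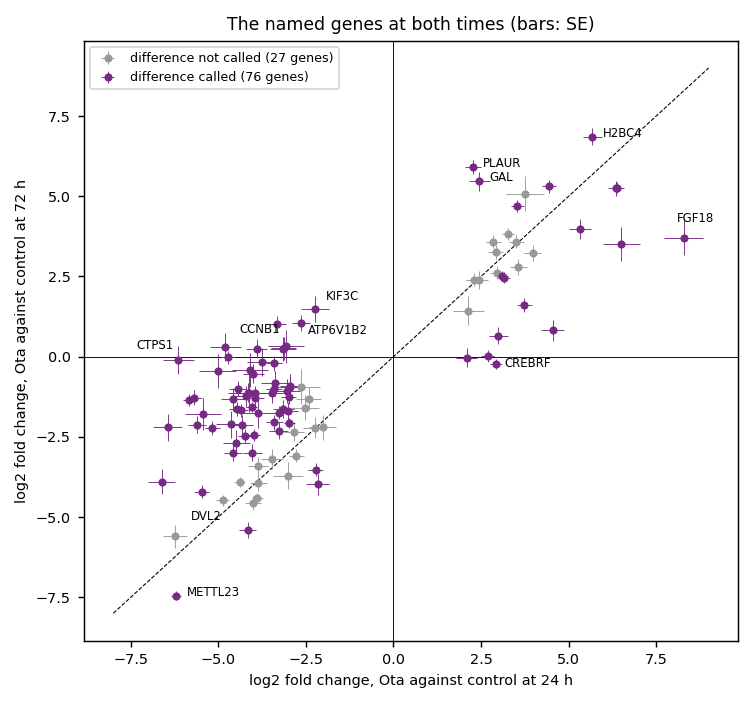
Log2 fold change of Ota against control at 24 h (horizontal) and at 72 h (vertical) for the 103 named genes, with bars of 1 SE; purple points passed the test of the difference between times (76 genes) and grey ones did not (27), and the dashed line marks equal changes. CCNB1 and CTPS1 lie near 0 on the vertical axis, PLAUR and GAL lie above the dashed line, and METTL23 and H2BC4 have the largest fall and rise on the vertical axis.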

How the data were processed

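HK-2 RNA was hybridised to Affymetrix arrays as biotin-labelled cRNA, per the labels' protocols. The authors deposited log2 values after GCRMA, per the submitters' processing notes; its version is not given in the sources used here. Groups came from sample titles. Probe sets were named from the platform annotation: 41097 of 54675 had 1 gene symbol, 1801 several and 11777 none, and the last 2 kinds were left out of the fit. For each gene the probe set with the highest mean was kept if it exceeded 4 on at least 3 arrays (10729 genes). limma 3.58.1 in R 4.3.3 fitted 4 group means over 12 arrays, with Benjamini-Hochberg adjustment and a threshold of 0.05; the median standard error was 0.21. The code was tested on simulated data. Nothing says that replicates came from separate cultures beyond their titles, so p-values reflect only how these samples vary, which may be technical. The number of arrays limits the precision.

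Samples with equal replicate numbers deviated together (correlations 0.125, 0.231 and 0.271, over 0.1 in every case), and those with unequal numbers gave -0.245 to 0.017. With 3 samples a group this is weak evidence, so the numbers were treated only as a possible pairing. The errors and p-values given come from the fit without it, and the replicate block was an alternative setting. This pairing comes from the data, not from a stated batch.

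Named genes had an adjusted p under 0.05, groups apart, a log2 change of at least 2 and no opposed probe set; the 12 largest rises and falls with both means at least 6, up to 8 of each between under 4 and over 8, and up to 2 of each per list were named. Other names were chosen after their values were seen, as were the smaller gene classes within lists. Members and lists were chosen with earlier results of these data known. Alternatives were other scalings, filters, probe set rules, thresholds, weights, a replicate block, the 6 arrays alone and leaving out each array. Promoters came from RefSeq.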

Additional observations from a re-analysis of the deposited data

Results flagged for a closer look

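For 76 of the 103 named genes the Ota effect at 24 h differed from that at 72 h (limma, adjusted p under 0.05), against 49.5% of all tested genes. Each value in brackets is the log2 fold change at 24 h minus that at 72 h. The genes were chosen for large changes at 24 h, which favours such differences.

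Among genes that fell at 24 h, the change was lower at 24 h than at 72 h in most. The gap was widest for CTPS1 (-6.04), SPC25 (-5.11), CDC7 (-4.70), UMPS (-4.58), AREL1 (-4.48), RRP36 (-4.41), PRPF3 (-4.35), TMEM139 (-4.24) and CCNB1 (-4.15). It lay between 3 and 4 on the log2 scale for KIF3C (-3.72), ATP6V1B2 (-3.71), RBM12 (-3.67), TMEM138 (-3.65), TSPYL1 (-3.59), FAHD1 (-3.50), FAM98B (-3.47), CHEK1 (-3.46), MRE11 (-3.40), ACVR1 (-3.39), KIF15 (-3.39), MED21 (-3.25), ABCF1 (-3.20) and PPHLN1 (-3.02). It lay between 2 and 3 for KAT7 (-2.99), PRPF18 (-2.98), TIMM23B (-2.95), ABCC10 (-2.84), HARS2 (-2.83), NBPF20 (-2.73), CALCOCO2 (-2.69), SLC38A9 (-2.69), EIF3J (-2.55), MED20 (-2.54), ZNF232 (-2.49), MRPL49 (-2.41), FARSA (-2.34), HMGB2 (-2.20), PNRC2 (-2.09), ERBB2 (-2.04) and PSME3 (-2.01). Smaller gaps were measured for TRAPPC6B (-1.97), JUND (-1.81), MCU (-1.75), FBXO46 (-1.74), CDC25B (-1.57), NXN (-1.55), H1-10 (-1.52), SLC19A1 (-1.51), UBE2E2 (-1.35), WIPI1 (-1.32), BRD3OS (-1.28), MRPL16 (-1.02), FZD5 (-0.97) and SLC1A4 (-0.90). The fall was greater at 72 h for SPATA7 (1.25), METTL23 (1.25), SLC4A4 (1.30) and COL4A4 (1.82).

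Among genes that rose at 24 h, the rise was greater at 24 h for FGF18 (4.57), ITGA9 (3.72), CREBRF (3.15), FRZB (3.00), ACVR1C (2.67), IGIP (2.34), NEDD4L (2.13), DDR2 (2.12), H2AC6 (1.35), MSH4 (1.12), AVIL (1.10), DDX5 (0.70) and MED26 (0.59). It was greater at 72 h for PLAUR (-3.65), GAL (-3.01), H2BC4 (-1.18), H2BC12L (-1.16) and ZNF513 (-0.86).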

How the results depend on the processing

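The named genes kept their direction at 24 h under every setting in which they were tested, which was all 103 except 100 with a filter at 6 and 76 without cross-hybridising probe sets. The rule of naming largely fixed this in advance. It asked for a change of at least 2, which exceeds the largest shift by a scaling (-1.85), and for no opposed probe set. The count of called genes stayed within 1.5 times of 6579 except with spike-in scaling (10187: 152 rises, 10035 falls) and with a minimum log2 change of 1 (4040, of which 933 rose). Rises also moved with median centring (4659, against 2863 falls), no filter (4008) and array weights (3470). With the replicate block 6762 genes were called, 2335 that rose and 4427 that fell, and the difference of the Ota effect between 24 h and 72 h was called for 5553; apart from the list counts given with their lists, the block moved no count by over 1.5 times. Leaving out each array gave 5870 to 6648 calls, 1872 to 2386 rises, 3950 to 4430 falls and 4633 to 5888 differences between times. The difference between times reversed in 3 cases: DDX5 (-0.26) and MED26 (-0.37) with spike-in scaling and PLAUR (0.066) without cross-hybridising probe sets; the cause was not tested. The called change ended for DDR2, PLAUR, KRT15, GAL and ADM with spike-in scaling and for CALCOCO2 without cross-hybridising probe sets. With the 6 arrays of 24 h alone, list counts beside those given above moved for replacement histones (4 to 2 falls), kinesins (5 to 3 rises), cytosolic ribosomal proteins (8 to 3), complex I (4 to 1 falls), mitochondrial import (5 to 3 rises) and one-carbon genes (5 to 3). With the mean over probe sets, rises moved for kinesins (5 to 3), translation factors (7 to 15), cytosolic ribosomal proteins (8 to 22), mitochondrial import (5 to 8) and proteasome genes (4 to 8). Signal near the floor limits the size of changes of genes that reach it.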

Other observations

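Genes that never passed the filter also shifted. Of these 9046 genes, 8286 (91.6%) had a higher mean on the Ota arrays than on the control arrays at 24 h, with a median difference of 0.04. All 3 Ota arrays lay above all 3 control arrays in 7210 of them and below in 158. The difference exceeded 1 in 97 genes and lay under -1 in 30. The leukocyte and endothelial markers, none of which passed the filter, moved the same way: their mean levels were 2.50 to 2.51 and 2.69 to 2.73 in control and 2.72 to 3.11 and 2.76 to 3.04 with Ota.

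Probe sets of 1 gene did not always move together. Of 3199 called genes read by several probe sets, 934 had a probe set that went the other way, and of 750 with a change of at least 2, 179 did. Of the named genes, 5 had expressed probe sets shared with other genes, and in 1 of these, DDX5, the shared probe set moved the other way. The Ota arrays varied more than the control arrays, with a median SD per gene of 0.307 against 0.175, and Ota replicates 2 and 3 had the lowest correlation within a group (0.954).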
